A study of Homo sapiens with 6 samples.

Results

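Cytochrome P450 genes outside the CYP1 family were examined in Huh7-R cells after fostamatinib. They were the rows whose symbol reads CYP, then digits, a letter and digits, without the CYP1 genes and without CYP51A1, CYP7A1, CYP8B1 and CYP27A1, and 18 of the 16305 genes in the tables met this rule. Huh7-R, written Huh7SR in the sample labels, is a sorafenib-resistant line derived from Huh7, a human hepatocellular carcinoma cell line. RNA was sequenced from 3 samples treated with fostamatinib, a spleen tyrosine kinase inhibitor given as a prodrug, at 2 µM for 24 h, and from 3 samples treated for the same 24 h with the vehicle DMSO, for which the labels also write 2 µM. All 6 samples are of the resistant line, which had been taken off sorafenib some days before the experiment, so the comparison covers 1 line, 1 dose and 1 time. Nothing in the sources says whether the 3 samples of a group were grown as separate cultures, so the p-values may reflect technical spread alone. In such bulk RNA, fewer cells of a kind and less RNA per cell cannot be told apart. The lists behind the rule hold 49 P450 symbols, and the other 31 were not analysed here.

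P450 enzymes are heme proteins, most of them in the membrane of the endoplasmic reticulum and some in mitochondria, that insert an oxygen atom into their substrate with electrons handed over by a redox partner. Families CYP2 and CYP3 do much of the drug and toxin oxidation of the liver, and many of their genes are induced by nuclear receptors such as the pregnane X receptor and are kept on in hepatocytes by HNF4A. Other families have narrow physiological tasks, such as the hydroxylation of fatty acids, the activation and breakdown of vitamins A and D, and the synthesis of steroids and bile acids. Hepatoma lines keep only part of the P450 expression of hepatocytes.

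The values are log2 CPM as deposited, that is, the log2 of reads scaled to the library size, with 0.5 added to each count. Every value could be turned back into a whole number of reads, and the depth was 13303451 to 15272737 reads per sample. A change is the fostamatinib mean minus the DMSO mean on the log2 scale, and a gene was called changed at an adjusted p under 0.05 in limma's moderated test, with Benjamini-Hochberg adjustment over all 16305 genes. Among 11 hepatocyte markers, all with values, the means with DMSO ran from 21.7 reads for APOA1 to 41512.0 for KRT8, with 28003.7 for AFP and 9338.0 for ALB. Of these 11 markers 9 rose and 2, KRT8 and KRT18, fell, where 55.6% of all genes with at least 20 reads in a group were called. Of 8 markers of blood, endothelial and stromal cells 4 had values and 3 of them rose (COL1A2, PECAM1 and PDGFRB), beside the same 55.6%, while PTPRC, CD3E, CD68 and VWF were not analysed here. The summed level of these 4 was 154 to 160 CPM with DMSO and 200 to 208 CPM with fostamatinib, and it rests mostly on COL1A2, which had a mean of 2095.3 of 2307 reads and then 2538 of 2814. The part of these markers in the results below was not tested.

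The largest difference among the well-covered P450 genes was that of CYP3A5, which rose more than 2-fold after fostamatinib. CYP2C18 and CYP2S1 rose as well, the former from few reads and the latter by little. CYP26B1 fell slightly. In all, 5 of the 18 genes (27.8%) were called, 4 higher and 1 lower, against 47.8% of all genes, 23.3% of them called higher and 24.5% lower. The share among these P450 genes was thus not above that of the whole transcriptome. The 10 genes with a mean under 20 reads in both groups held 2 of the calls (20%), where 14.7% of all such genes were called, and the 8 better covered ones held 3 (37.5%), where the share was 55.6%. The median change of the 18 genes was 0.11, beside 0.0015 over all genes, with 10 values above 0 and 8 below. The 3 samples of one group lay wholly above or below those of the other for 7 of the 18 genes (38.9%), against 54.1% of all genes. The authors kept a gene with 5 reads in at least 2 samples of either group, and 14 of the 18 met this in both. Of the others named here, CYP2C8 and CYP19A1 met it only with fostamatinib, which favours a rise, and CYP26C1 only with DMSO. Among the 14 genes, 5 had groups that did not overlap. An exact permutation test of 3 samples against 3 cannot give a two-sided p below 0.10 for any single gene.

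**Figure D1:**
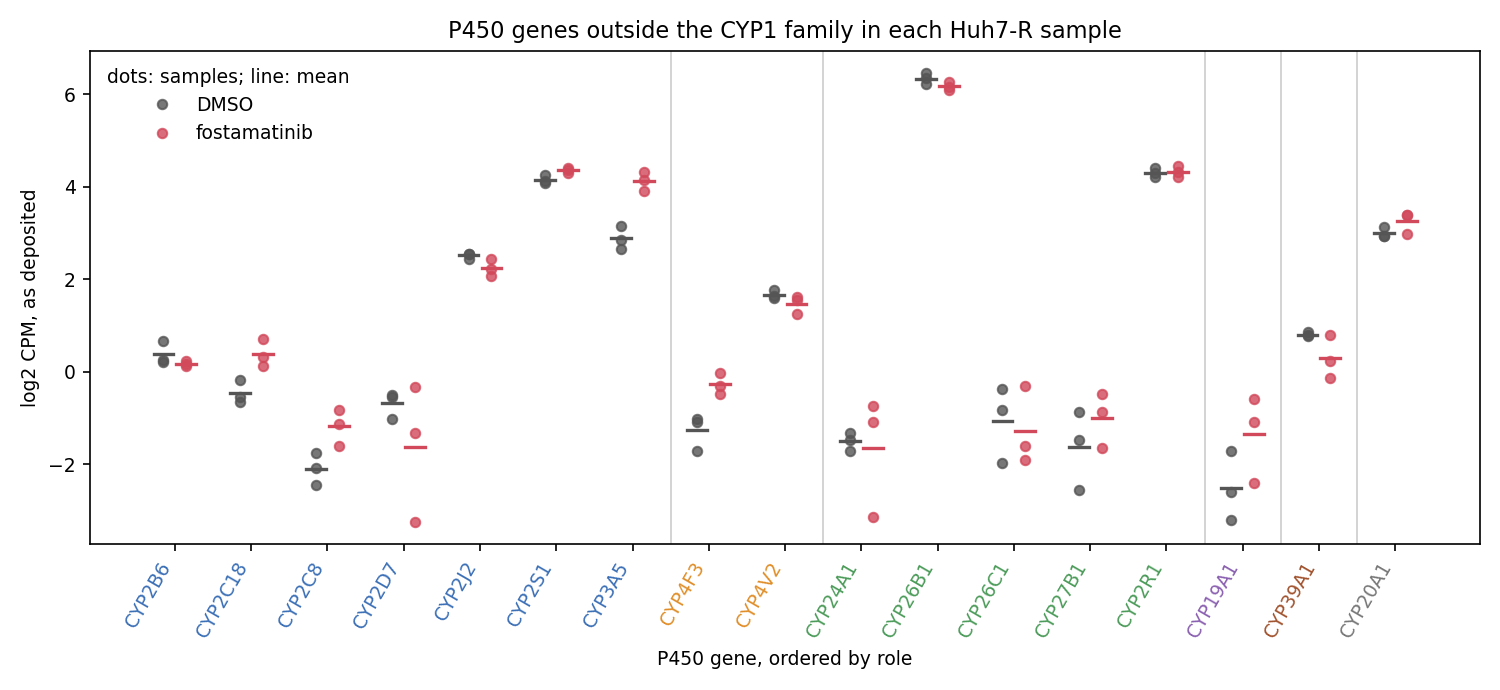
Deposited log2 CPM (y axis) of 17 of the P450 genes (x axis, ordered by role and coloured by it) in the 3 DMSO samples (grey) and the 3 fostamatinib samples (red), with a line at each group's mean. The groups of CYP3A5 lie apart, from 2.65 to 3.14 and from 3.91 to 4.32, while most other genes overlap or differ by little.

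**Figure D2:**
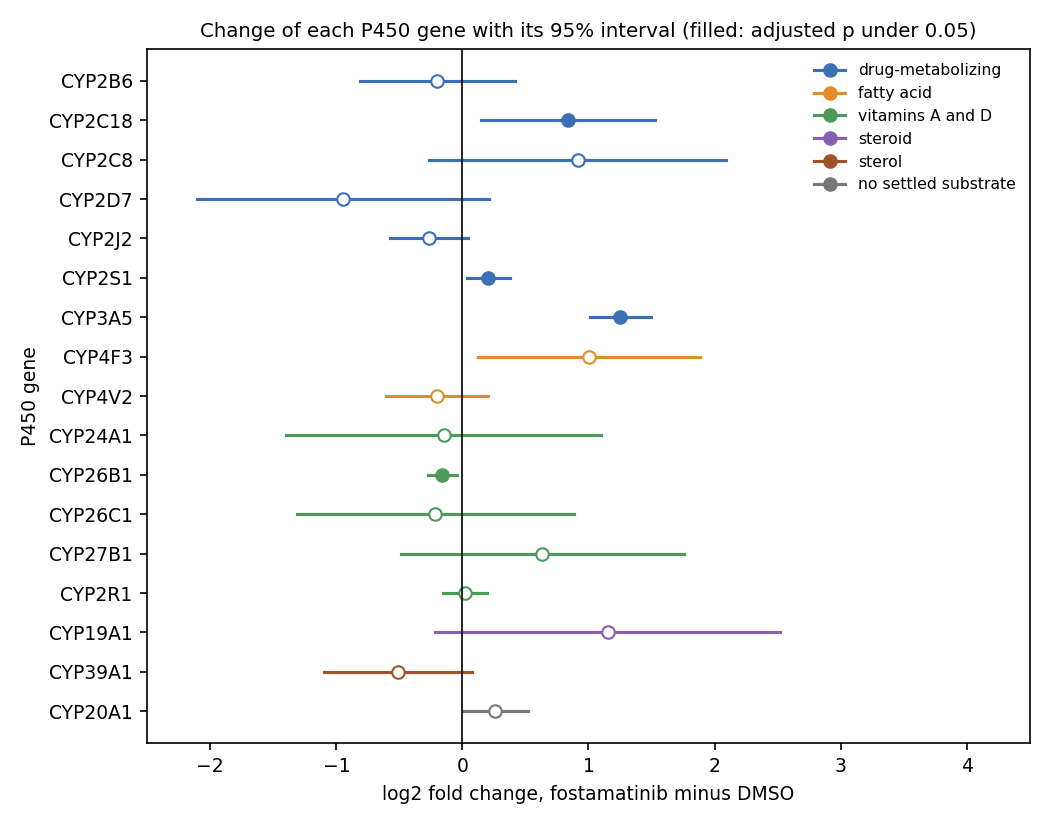
Log2 fold change, fostamatinib minus DMSO (x axis), of 17 of the P450 genes with its 95% interval from limma. Filled points mark the genes called changed, 4 of those drawn, and the intervals of the genes with few reads are wide, as for CYP2C18 from 0.14 to 1.53.

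CYP3A5 (ENSG00000106258, GRCh37 chromosome 7, 99245817 to 99277619, minus strand) encodes a drug-oxidizing enzyme of liver and gut that shares many substrates with CYP3A4. It was covered by 121, 95 and 106 reads with DMSO and by 207, 253 and 264 with fostamatinib. The corresponding levels were 3.14, 2.65 and 2.84 log2 CPM against 3.91, 4.15 and 4.32. Every fostamatinib sample was higher than every DMSO sample, and the gap between the groups exceeded the range within either. The mean rose from 2.88 ± 0.249 (SD, n = 3) to 4.13 ± 0.203 (SD, n = 3). This difference of 1.25 on the log2 scale (standard error, SE, 0.12) is 2.38-fold, with a 95% interval from 2.01 to 2.82 fold. The adjusted p was 7.04e-11 in limma's test, a value that borrows the spread of other genes, and it was 0.00395 without the mean-variance trend. With each sample left out in turn the log2 fold change lay between 1.14 and 1.39. The nearest genes with values were ZSCAN25, 15786 bases away, with a log2 fold change of -0.06 (SE 0.068), and TRIM4, 196962 bases away on the other side, with 0.48 (SE 0.065).

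The promoters of the called members are shown because genes of the CYP2 and CYP3 families are classic targets of nuclear receptors that bind the half-sites AGGTCA and AGTTCA. The windows run from 250 bases before to 50 after the start site, come from RefSeq on GRCh38.p14 and are printed 5′ to 3′ on the gene's strand. Capitals mark these half-sites on either strand and, in CYP3A5, the bases between 2 of them.
CYP3A5, chr7:99679947-99680246, minus strand: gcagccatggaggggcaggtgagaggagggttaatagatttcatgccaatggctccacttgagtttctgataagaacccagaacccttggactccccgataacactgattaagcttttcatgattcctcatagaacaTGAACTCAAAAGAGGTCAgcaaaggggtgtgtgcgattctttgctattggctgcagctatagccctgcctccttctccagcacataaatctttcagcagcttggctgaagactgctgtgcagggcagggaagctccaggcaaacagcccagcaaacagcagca
CYP2S1, chr19:41192969-41193268, plus strand: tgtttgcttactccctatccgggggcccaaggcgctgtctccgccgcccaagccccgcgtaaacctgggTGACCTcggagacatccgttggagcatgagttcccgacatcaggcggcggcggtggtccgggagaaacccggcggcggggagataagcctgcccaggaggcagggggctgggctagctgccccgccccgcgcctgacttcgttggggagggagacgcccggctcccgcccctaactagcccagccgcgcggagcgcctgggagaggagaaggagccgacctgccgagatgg
CYP26B1, chr2:72147813-72148112, minus strand: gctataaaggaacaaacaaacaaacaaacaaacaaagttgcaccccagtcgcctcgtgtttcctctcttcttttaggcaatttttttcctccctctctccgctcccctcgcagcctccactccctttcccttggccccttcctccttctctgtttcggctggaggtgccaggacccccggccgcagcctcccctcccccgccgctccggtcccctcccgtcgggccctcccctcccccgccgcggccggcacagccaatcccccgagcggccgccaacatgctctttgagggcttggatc

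The 18 capital bases in the CYP3A5 window are TGAACT and AGGTCA, half-sites that point away from each other, with 6 bases between them, beginning at position -113 from the start site. As background, this everted arrangement is a known binding element of the pregnane X receptor in promoters of the CYP3A family. Searched on both strands, the string TGAACT, any 6 bases and AGGTCA occurred in 3 of the 35116 windows in the table (0.00854%). They were those of CYP3A4, CYP3A5 and ITGB1BP2. Of these CYP3A4 is not among the 18 genes, so no change can be set beside its window. Everted pairs with the same half-site on both sides were not counted. The share is thus that of this string, taken as it stands in CYP3A5, and not of the arrangement in general. The half-site AGGTCA alone was in 13.8% of all windows and AGTTCA in 10.4%, counting those inside the everted pair. CYP2S1 held 1 half-site and CYP26B1 none. AGGTCA was also in windows of CYP2B6, CYP4V2 and CYP19A1, none of which was called. The log2 fold change was -0.20 for CYP2B6, -0.20 for CYP4V2 and 1.15 for CYP19A1. The motif GCGTG, the core of the aryl hydrocarbon receptor element, was in 36.5% of all windows and in none of these 3 windows, and TATAAA was in 11.5% of all windows and in that of CYP26B1. Of the 18 genes 13 matched the table by symbol, and those without an entry included CYP2C18, CYP2D7, CYP24A1 and CYP27B1. A match or its absence is a description of the letters in this window.

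CYP2C18 and CYP2C8 lie on chromosome 10 of GRCh37, at 96443486 to 96495947 on the plus strand and at 96796529 to 96829254 on the minus strand. CYP2C18, a member of the CYP2C subfamily with little protein in liver, had 9, 13 and 9 reads and then 22, 15 and 16, without overlap, a log2 fold change of 0.84 (SE 0.34, limma adjusted p = 0.0415). For CYP2C8, which oxidizes paclitaxel and arachidonic acid, the counts were 2, 4 and 3 and then 4, 6 and 7. Its log2 fold change of 0.91 did not pass the test (adjusted p = 0.200, limma), with an interval from -0.26 to 2.09, although its groups did not overlap on the CPM scale. CYP2C8 met the authors' filter only with fostamatinib, so its direction and the lack of overlap were favoured by the filter. Both genes thus had positive values, from few reads, and the 0.5 added to each count makes such changes look smaller than the reads themselves. The call of CYP2C18 was lost when DMSO replicate 1, DMSO replicate 3, fostamatinib replicate 1 or fostamatinib replicate 3 was left out, with adjusted p-values up to 0.174. HELLS, the nearest gene with values before CYP2C18, had a log2 fold change of -0.88 (SE 0.10), and PDLIM1, the nearest after CYP2C8, 0.07 (SE 0.042).

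CYP2S1, an enzyme of epithelia that is known as a target of dioxin and of the aryl hydrocarbon receptor, lies at 41699115 to 41713444 of GRCh37 chromosome 19, plus strand. Its levels were 4.24, 4.13 and 4.07 log2 CPM with DMSO and 4.29, 4.36 and 4.40 with fostamatinib. The groups did not overlap, but the lowest fostamatinib sample and the highest DMSO sample were close. The log2 fold change was 0.21 (SE 0.084, limma adjusted p = 0.0408), or 1.15-fold with an interval from 1.03 to 1.30. This call was lost when the library size alone was used for scaling (adjusted p = 0.0553, limma), without the mean-variance trend (adjusted p = 0.0540, limma) and without any 1 of 4 samples (DMSO replicate 2 or 3, fostamatinib replicate 2 or 3).

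The other 3 drug-metabolizing members gave no call. CYP2J2, which also makes epoxides of arachidonic acid in the heart, had levels of 2.55, 2.54 and 2.44 log2 CPM and then 2.06, 2.22 and 2.43. Its groups did not overlap, by a narrow margin, and its log2 fold change of -0.27 (SE 0.15, limma adjusted p = 0.152) had an interval from -0.58 to 0.04. CYP2B6, the classic target of the constitutive androstane receptor, had 16, 17 and 23 reads and then 15, 15 and 15, a log2 fold change of -0.20 with an interval from -0.82 to 0.42. CYP2D7, a near copy of CYP2D6 that is usually regarded as a pseudogene, had 9, 7 and 10 reads and then 5, 1 and 10, with an interval of the log2 fold change from -2.11 to 0.21. Of the 50-base windows of its transcripts 28.1% also occur in other P450 transcripts, those of CYP2D6 foremost, so reads of CYP2D7 may be shared with its neighbour. This share was 8.13% for CYP4F3, 7.81% for CYP2B6, 1.93% for CYP2C8, 0.824% for CYP2C18 and 0.801% for CYP3A5, and 0 for CYP2S1, CYP2J2 and CYP26B1.

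Of the 2 fatty acid hydroxylases with values neither passed the test. CYP4F3, which inactivates leukotriene B4 in neutrophils and hydroxylates long-chain fatty acids in liver, was covered by 6, 7 and 4 reads with DMSO and by 13, 11 and 9 with fostamatinib. Its groups did not overlap, and its log2 fold change was 1.01 (SE 0.43, limma adjusted p = 0.0553). It passed under 3 other settings, as given with the processing. CYP4V2, mutated in a retinal dystrophy with crystal deposits, had 41, 47 and 50 reads and then 32, 41 and 40, a log2 fold change of -0.20 with an interval from -0.60 to 0.20.

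Among the 5 genes for vitamins A and D, CYP26B1 fell and the others did not pass the test. CYP26B1, which breaks down retinoic acid, lies at 72356367 to 72374991 of GRCh37 chromosome 2, minus strand (ENSG00000003137). Its reads numbered 1202, 1234 and 1099 with DMSO and 1060, 972 and 945 with fostamatinib, or 6.45, 6.34 and 6.21 log2 CPM against 6.27, 6.09 and 6.16. The highest fostamatinib sample lay above the lowest DMSO sample, so the groups overlapped. The log2 fold change was -0.16 (SE 0.057, limma adjusted p = 0.0215), which is 0.896-fold with an interval from 0.826 to 0.971. The call was lost without the mean-variance trend (adjusted p = 0.191, limma) and without DMSO replicate 1, fostamatinib replicate 2 or fostamatinib replicate 3. CYP26C1, a second enzyme of retinoic acid breakdown, had 3, 8 and 11 reads and then 4, 11 and 3, with an interval of the log2 fold change from -1.32 to 0.88.

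The 3 genes for vitamin D gave wide or narrow intervals according to their depth. CYP2R1, the 25-hydroxylase that makes the circulating form of the vitamin, had 4.20, 4.30 and 4.40 log2 CPM with DMSO and 4.32, 4.44 and 4.21 with fostamatinib. Its log2 fold change of 0.02 (SE 0.085) had an interval from -0.15 to 0.19, which is 0.900-fold to 1.14-fold. CYP27B1, which makes the active hormone, had 7, 5 and 2 reads and then 7, 4 and 9, and CYP24A1, which inactivates it, 5, 5 and 4 and then 6, 8 and 1. Their intervals, from -0.49 to 1.76 and from -1.40 to 1.10 on the log2 scale, both span a 2-fold rise. The interval of CYP24A1 also spans a 2-fold fall, and this depth could not show such changes. CYP27B1 overlaps METTL1, which had a log2 fold change of -0.76 (SE 0.11), by 516 bases on the same strand of the annotation.

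The last 3 members stand alone in their roles, and none passed the test. CYP19A1, the aromatase that turns androgens into estrogens, had 1, 2 and 4 reads and then 6, 9 and 2, with an interval of the log2 fold change from -0.21 to 2.52. The gene met the authors' filter only with fostamatinib. It overlaps MIR4713HG on the opposite strand by 85856 bases. The libraries were made with a directional kit, but the sources do not state the strand setting of the counting. CYP39A1, a 7α-hydroxylase of 24-hydroxycholesterol on a side path to bile acids, had 23, 27 and 25 reads and then 12, 24 and 15, a log2 fold change of -0.51 with an interval from -1.09 to 0.07. CYP20A1, whose substrate is not settled, had 120, 115 and 113 reads and then 144, 112 and 138, with overlap. Its log2 fold change of 0.26 (SE 0.13, limma adjusted p = 0.0911) had an interval from 0.002 to 0.52, and it was called without fostamatinib replicate 2 (0.40, adjusted p = 0.0160, limma).

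**Figure D3:**
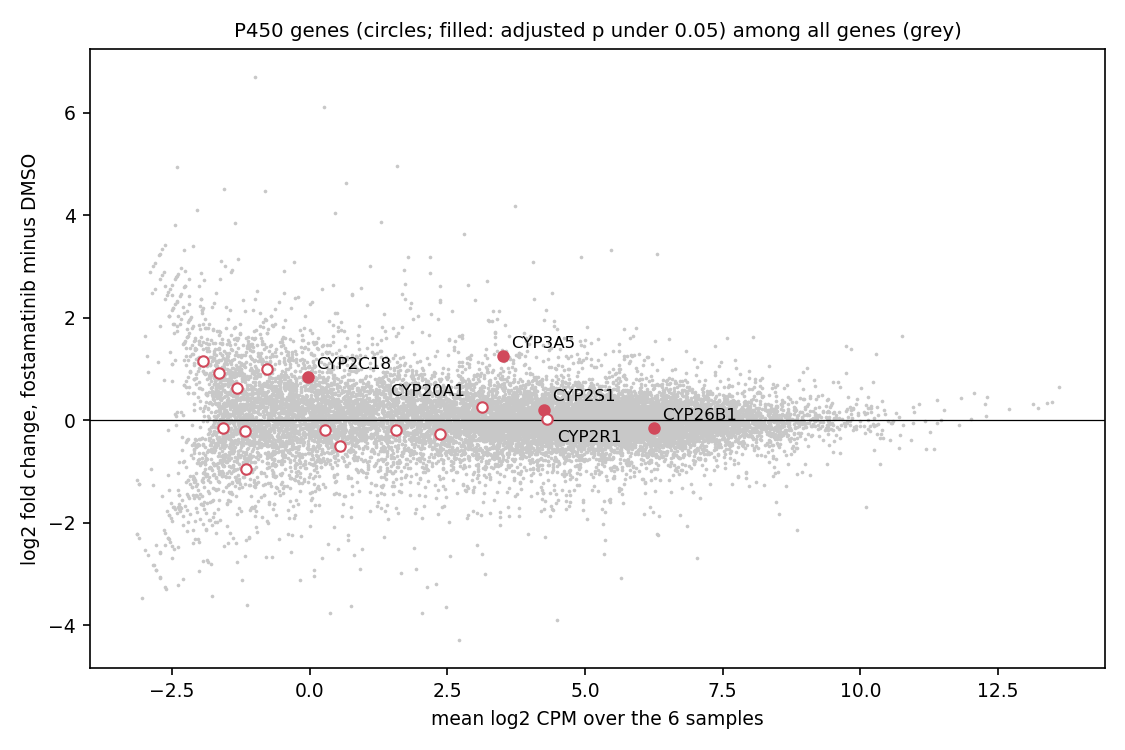
Log2 fold change, fostamatinib minus DMSO (y axis), against the mean log2 CPM of the 6 samples (x axis) for all 16305 genes (grey) and 17 of the P450 genes (circles, filled where called). CYP3A5 at 1.25 stands at the outer side of the cloud at its level, while CYP26B1 at -0.16 lies within it, and CYP2C18 at 0.84 lies where the cloud is wider.

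Levels between genes were set side by side per length, as CPM divided by the exon length in kilobases (RPKM). In the DMSO samples CYP26B1 led with 16.7 ± 1.37 RPKM (SD, n = 3), followed by CYP2S1 with 6.52 ± 0.398, CYP2R1 with 4.39 ± 0.308 and CYP2J2 with 1.90 ± 0.0785. The ranges of these 4 genes did not overlap. CYP3A5 with 0.752 ± 0.132 RPKM and CYP20A1 with 0.749 ± 0.0620 came next, and their ranges overlapped. The other 12 genes lay between 0.0187 RPKM for CYP19A1 and 0.549 RPKM for CYP39A1. After fostamatinib the first 3 genes kept their order, with 14.9 ± 0.929, 7.52 ± 0.292 and 4.46 ± 0.356 RPKM. CYP3A5 then had 1.79 ± 0.249 RPKM and overlapped in range with CYP2J2 at 1.58 ± 0.206. Lengths are the joined exons of all transcripts of a gene, which understates genes whose longest forms are rarely made.

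The summed level of the 18 genes was 157, 147 and 142 CPM with DMSO and 156, 151 and 157 CPM with fostamatinib, and these ranges overlapped. CYP26B1 alone made up 52.1% to 55.6% of the sum with DMSO and 45.0% to 49.3% with fostamatinib. CYP3A5 made up 4.23% to 5.60% and then 9.63% to 12.7%. Without these 2 genes the sum was 59.95 to 60.89 CPM and then 64.2 to 65.5 CPM. Since the sum rests mostly on 1 gene, it was not tested.

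**Figure D4:**
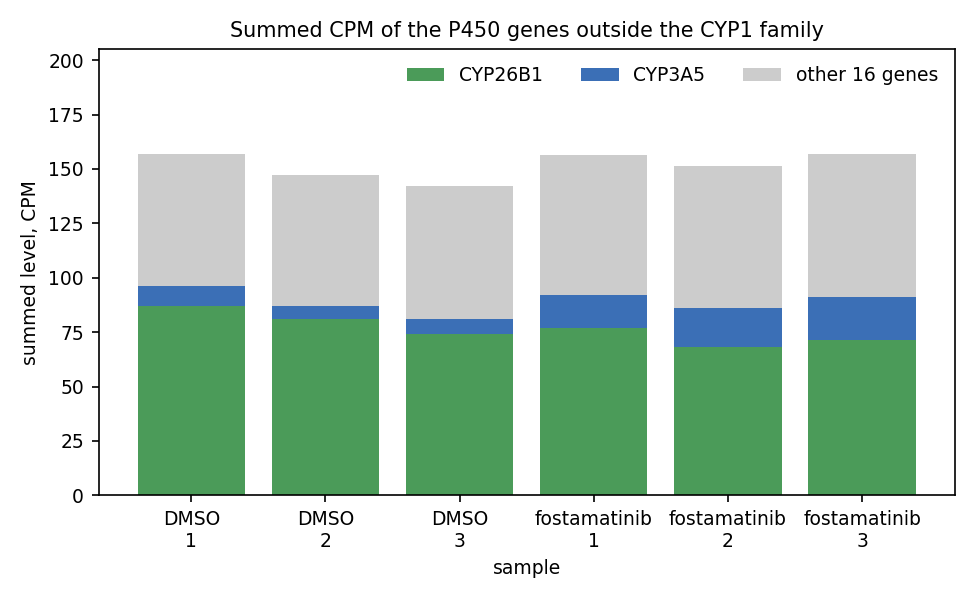
Summed CPM of the 18 P450 genes (y axis) in each of the 6 samples (x axis), divided into CYP26B1 (green), CYP3A5 (blue) and the other genes (grey). The totals lie between 142 and 157 CPM in every sample, and the blue part is larger in the 3 fostamatinib samples, 9.63% to 12.7% against 4.23% to 5.60%.

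The genes that serve or regulate P450 enzymes were taken from 4 lists, of which 36 of 48 genes had values. Of these 36 genes 20 rose and 5 fell (69.4% called, against 47.8% of all genes and 55.6% of the genes with at least 20 reads in a group). Of the 8 redox partners 3 rose and 1 fell (50% called), which is not above the 55.6%. POR, the reductase that feeds electrons to every P450 of the endoplasmic reticulum, had 6.72, 6.79 and 6.61 log2 CPM and then 7.01, 7.02 and 6.99, a rise of 0.30 (SE 0.048, limma adjusted p = 2.22e-06). CYB5R3, the reductase of cytochrome b5, rose by 0.30 (SE 0.039), and PGRMC2, a heme-binding membrane protein, by 0.20 (SE 0.065) with overlapping groups. The gene that fell was CYB5A, cytochrome b5 itself, with -0.19 (SE 0.050).

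Of the 12 genes for the synthesis and breakdown of heme 5 rose and 2 fell (58.3% called), near the 55.6% of all genes with at least 20 reads in a group. ALAD, the second enzyme of the synthesis, rose by 0.64 (SE 0.062, limma adjusted p = 1.21e-10) and PPOX by 0.47 (SE 0.099), while CPOX, the enzyme just before PPOX, fell by 0.45 (SE 0.056). ALAS1, the enzyme that limits the rate of the pathway in liver, had a log2 fold change of 0.07 (adjusted p = 0.249, limma).

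Of the 10 nuclear receptors with values 8 rose and 1 fell (90% called). Of all genes 47.8% were called, and of those with at least 20 reads in a group 55.6%. Only 1 of the 10 had under 20 reads in both groups. RARB, a retinoic acid receptor whose own gene responds to retinoic acid, was covered by 9, 12 and 8 reads with DMSO and by 47, 44 and 30 with fostamatinib, a log2 fold change of 2.09 (SE 0.29, limma adjusted p = 1.73e-07). NR0B2, the small heterodimer partner, rose from 5, 4 and 5 reads to 10, 16 and 12, a log2 fold change of 1.42 (SE 0.43, limma adjusted p = 6.92e-03). NR1H4, the bile acid receptor FXR, fell from 91, 131 and 134 reads to 50, 36 and 43, a log2 fold change of -1.36 (SE 0.17, limma adjusted p = 1.64e-08). In each of these 3 receptors the groups did not overlap. HNF4A, which drives many hepatocyte genes, had a log2 fold change of 1.02 (SE 0.039). NR1I2, NR1I3, RXRG, VDR and ESR1 were on the list and were not analysed here, so the receptors best known for CYP2B6, CYP3A and vitamin D genes have no value.

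Of the 6 genes of retinoid handling 4 rose and 1 fell (83.3% called). The share was 47.8% of all genes and 55.6% of those with at least 20 reads in a group. Under 20 reads in both groups were found for 2 of the 6. ALDH1A1, which makes retinoic acid from retinal, rose from 9.88, 9.91 and 10.02 log2 CPM to 11.55, 11.61 and 11.56, a log2 fold change of 1.63 (SE 0.034, limma adjusted p = 2.70e-29). RBP4, the carrier of retinol in plasma, rose by 0.52 (SE 0.039). CRABP2, a cytosolic carrier of retinoic acid, had 2, 5 and 9 reads and then 1, 0 and 1, and its fall (adjusted p = 0.0293, limma) rests on counts too low for a fold change. The gene met the authors' filter only with DMSO, which favours a fall. Beside these values CYP26B1 fell by 0.16 on the log2 scale, with overlapping groups and a call that was lost without the mean-variance trend. Whether its fall is linked to the retinoid genes or receptors above was not tested. The 4 lists were written with earlier results of these data known.

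**Figure D5:**
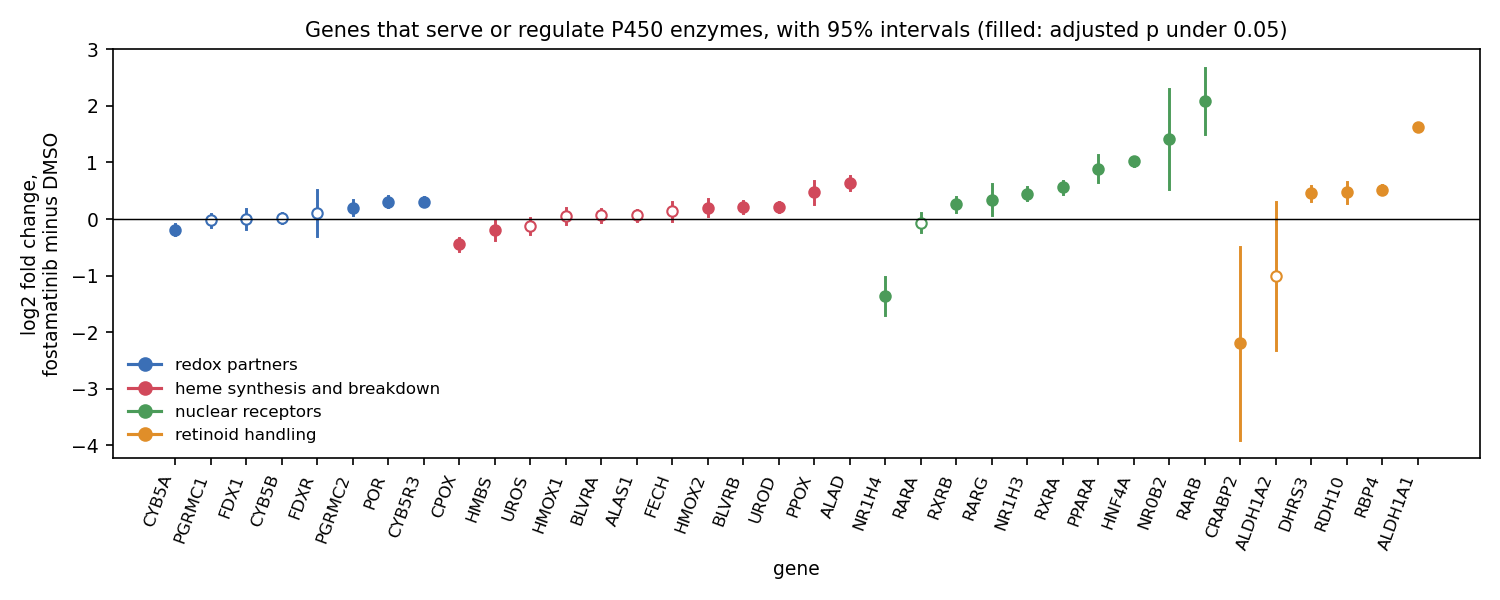
Log2 fold change, fostamatinib minus DMSO, with its 95% interval (y axis) for the 36 genes of the 4 lists (x axis): redox partners (blue), heme genes (red), nuclear receptors (green) and retinoid handling (orange). Filled points mark the 25 genes called changed, and the redox partners all lie between -0.19 and 0.30, while RARB at 2.09 and ALDH1A1 at 1.63 are the highest.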

How the data were processed

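RNA-seq of 3 fostamatinib-treated and 3 DMSO-treated samples was used, with groups and replicate numbers from the sample labels. The authors aligned the reads by HISAT against hg19 and obtained gene counts by featureCounts with the GENCODE version 22 annotation (the versions of both tools are not given in the sources used here), removed genes with few reads in both groups and applied TMM normalization. The deposited values are log2 CPM with 0.5 added to each count. Reads were recovered from them, every value lying within 0.05 of a whole number, and they summed to between 13303451 and 15272737 in a sample.

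The test was limma's moderated linear model (version 3.58.1, R 4.3.3), whose prior variance followed the mean level, for all 16305 genes with treatment as the only term and Benjamini-Hochberg adjustment. The median total degrees of freedom were 33.9 against 4 residual. It was fitted to the log2 values as deposited, and the recovered reads were used for the numbers of reads, RPKM, the sums and the alternatives. Intervals are 95% intervals of the moderated fit. Tables and figures were made with Python 3.11.15, pandas 2.3.3, scipy 1.17.1 and matplotlib 3.10.9. Gene positions and exon lengths are from GENCODE version 44 mapped to GRCh37, the build of hg19.

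Of the 18 members 17 are named, and 1 is not reported here, although the counts, medians and sums include it. Values in every sample were given to members with an adjusted p under 0.05 and a higher group mean of 20 reads or over, and to the 5 with the highest RPKM. Reads in every sample were given for the others, which for CYP4V2, CYP39A1 and CYP20A1 goes beyond the rule. Partner genes were named by the 3 largest changes called in each list. CYB5A, ALAS1, HNF4A, the neighbouring genes and the markers singled out from their lists were chosen after their values were seen. The members and lists were chosen with earlier results of these data known. Of the 7 P450 genes left out by the rule 4 had values, and 3 of these rose, where 55.6% of all genes with at least 20 reads in a group were called.

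The alternatives were limma-voom on recovered reads, no trend, robust moderation, RLE size factors, library size alone, a pseudocount of 2, filters of 10 reads in every sample or of 5 reads in at least 2 samples of both groups, the replicate number as a block, and each of the 6 samples left out. A run with no filter was not possible on tables that are already filtered.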

Additional observations from a re-analysis of the deposited data

How the results depend on the processing

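Of the 18 P450 genes 5 were called, 4 higher and 1 lower, beside 7794 of all 16305 genes. The counts were the same with limma-voom, robust moderation and RLE size factors, each with all 5 genes shared. With at least 10 reads in every sample only 9 of the 18 genes were left in the fit. Of these 3 were called, 2 of them higher, beside 7321 of all 13287 genes left. Groups that did not overlap were seen for 3 of the 9, against 7 of the 18. Without the mean-variance trend 5 were called, 5 higher and 0 lower (the unadjusted p of CYP26B1 under the trend was 0.00911), and 3 of the calls were shared. Of all 16305 genes 6382 were called in that fit. With each sample left out in turn 3 to 4 genes were called, 2 to 4 higher and 0 to 1 lower, beside 6958 to 7480 of all 16305 genes. Groups that did not overlap were seen for 8 to 12 of the 18, since fewer samples overlap less easily. No share of all genes is given for the overlap in these fits. The number of P450 genes called was 3 without DMSO replicate 1, without DMSO replicate 3, without fostamatinib replicate 1 and without fostamatinib replicate 3. CYP3A5 was called in each of the 15 alternatives. CYP4F3 was called with a log2 fold change of 1.01 without the trend (adjusted p = 0.0212, limma) and with the filter met in both groups (adjusted p = 0.0492), and with 0.86 at a pseudocount of 2 (adjusted p = 0.0416). CYP2C8 was called without the trend, and CYP2D7 without fostamatinib replicate 3, with a log2 fold change of -1.60. The partner genes called numbered 20 to 24 of 36 with a sample left out, against 25 with all samples, beside the same 6958 to 7480 of all genes.

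With a sample left out, 3 genes changed sign in 5 cases, none with a call. CYP24A1 ranged from -0.61 to 0.59 over these fits, the latter without fostamatinib replicate 3. CYP26C1 ranged from -0.70 to 0.13, and it was above 0 without DMSO replicate 3 and, at 0.10, without fostamatinib replicate 3. CYP2R1 ranged from -0.038, without fostamatinib replicate 2, to 0.077, and was -0.030 without DMSO replicate 1. The cause of these moves was not tested.

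The 2 groups share replicate numbers in the labels. With the replicate block 5 P450 genes were called, the same 5 genes, and 7977 of all genes against 7794. Samples with 1 number deviated from their group means with correlations of 0.028, -0.019 and 0.013, and 2 of 6 samples correlated best with their own number. The sources do not say whether samples of 1 number were handled together, and with 3 samples per group these values cannot settle it. RLE scaling moved the median change of all genes by 0.0037 and library size alone by -0.011. Depth limits the 10 genes under 20 reads.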

Other observations

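Of the other rows with a P450 name, 6 were pseudogenes or antisense RNAs, which the rule leaves out, and none passed limma's test at an adjusted p under 0.05. CYP51A1P1, a pseudogene of the lanosterol demethylase on chromosome 3, was covered by 1, 1 and 6 reads with DMSO and by 7, 5 and 6 with fostamatinib (log2 fold change 1.49, SE 0.66, limma adjusted p = 0.0604). CYP2B7P, next to CYP2B6, had 1, 1 and 6 reads and then 5, 4 and 5. CYP2D8P, 431 bases from CYP2D7, had 3, 2 and 1 reads and then 6, 1 and 5. CYP4A22-AS1, an antisense RNA on chromosome 1, had 4, 1 and 3 reads and then 6, 5 and 6, without overlap, and a log2 fold change of 1.19 (SE 0.62). All of these named rows met the authors' filter only with fostamatinib, which favours values above 0 and groups without overlap.

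Neighbours of the P450 genes on the chromosome were also listed. GLDN, 3054 bases from CYP19A1, had a mean of 7.3 reads in the DMSO samples and 21.7 after fostamatinib, a log2 fold change of 1.57 (SE 0.35, limma adjusted p = 2.95e-04). EXOC6B, 28122 bases from CYP26B1, had a log2 fold change of -0.12 (SE 0.048), near the value of -0.16 of CYP26B1 itself. EXOC6, 1305 bases from CYP26C1, had 0.24 (SE 0.080), and AXL, 11684 bases from CYP2S1, had 0.01 (SE 0.056). These genes were picked after their values were seen.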
